A study of Mus musculus with 6 samples.

Results

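The Rab small GTPases were taken as every gene in the count table whose symbol consists of Rab, a number and at most 1 letter, which gave 58 of the 24060 genes listed. Rab-like genes and antisense transcripts of Rab loci fall outside this definition. Levels were measured by RNA-seq in retinal ganglion cells (RGCs), the projection neurons of the retina, from C57BL/6 mice at embryonic day 18 (E18, 3 samples) or postnatal day 5 (P5, 3 samples). The comparison addresses how the RGC transcriptome differs between an age at which these neurons extend axons readily and an age at which they have largely lost that ability. Retinas of both ages went through the same steps, which were papain digestion, removal of macrophages on antibodies, and capture of RGCs with antibodies against CD90, the surface protein encoded by Thy1. No genotype or treatment other than age separated the groups, and the labels do not say whether a sample came from 1 animal or from pooled litters, so the p-values given here describe the spread between these samples, which may be technical. In such bulk samples, fewer cells of a type and less RNA per cell cannot be told apart.

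Rab proteins are molecular switches that cycle between a GDP-bound form held in the cytosol and a GTP-bound form on membranes. Guanine nucleotide exchange factors load GTP, GTPase-activating proteins (GAPs) promote its hydrolysis, and the GTP-bound form recruits effectors such as tethers, motors and fusion factors. Each Rab marks a particular membrane, from the endoplasmic reticulum and Golgi to synaptic vesicles, endosomes and lysosomes, and in neurons the family steers membrane delivery to the growing axon as well as transmitter release.

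Between 81213639 and 114512853 reads were assigned to genes per sample. All 10 RGC markers examined were detected, with a summed level of 6099 to 6928 CPM (assigned reads scaled to a fixed library total by TMM) at E18 and 6949 to 8344 CPM at P5. Thy1, the capture target, was at 212, 217 and 312 CPM at E18 and at 500, 469 and 690 CPM at P5. Of the other cell types, the summed microglia, retinal pigment epithelium and red blood cell lists (6, 6 and 4 genes) stayed at or below 1.98 CPM in every sample, and Hba-a1 and Hbb-b1 had no read. The 8 photoreceptor markers summed to between 3.59 and 10.7 CPM. The 7 amacrine markers summed to 636 to 941 CPM at E18 and 526 to 651 CPM at P5, of which Pax6, also made by RGCs, was 498 to 751 CPM. The 6 glial markers, of which Glul made up most, summed to 318 to 348 CPM at E18 and 238 to 278 CPM at P5. The 8 cell division genes summed to 282, 110 and 66.4 CPM in E18 replicates 1, 3 and 4 and to between 48.4 and 62.4 CPM at P5. The 6 endothelial and pericyte markers summed to 71.2, 63.9 and 15.3 CPM in the same E18 samples and to between 10.7 and 15.2 CPM at P5. Kdr alone made up 69.5, 62.9 and 14.1 CPM of the E18 sums, Cdh5 and Cldn5 were at or below 0.217 CPM in every sample, and Pecam1 and Rgs5 were instead 3.51-fold and 20.6-fold higher at P5. The amacrine factor Tfap2b was at 47.5 and 119 CPM in E18 replicates 1 and 3 and at 1.62 CPM in E18 replicate 4. E18 replicate 4 therefore stood apart from the other E18 samples in Kdr and Tfap2b, and E18 replicate 1 in the cell division genes. The part of these genes in the Rab results was not tested beyond leaving each sample out.

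The Rab genes that differed between the ages were, with 1 exception, lower at E18 than at P5. Of the 58, 53 passed the filter on low counts, and 21 of these differed between the ages by edgeR's quasi-likelihood test at an adjusted p of 0.05, 20 lower and 1 higher at E18. The shares were 37.7% of the tested Rab genes lower and 1.89% higher, where over the 16449 genes tested 22.5% were lower, 20.8% were higher and 43.4% differed in either direction. The share of Rab genes that differed, 39.6%, was thus near that of all genes, whereas the directions were unevenly divided. The median log2 fold change, E18 over P5, was -0.28 for the Rab genes and 0.0047 for all genes, and 73.6% of Rab genes against 49.6% of all genes had a negative value. The E18 and P5 ranges did not overlap for 31 of the 53 Rab genes, 27 of them with E18 below P5 and 4 above. They did not overlap for 56.1% of all 16449 genes tested, 4694 with E18 below P5 and 4536 above. The changes were mostly small, since 9.43% of Rab genes against 15.9% of all genes were called with at least a 2-fold difference. Leaving out single samples gave between 11 and 28 called Rab genes. The count fell to 11 without E18 replicate 1 or E18 replicate 3 and to 14 without E18 replicate 4, and it rose to 28 without P5 replicate 8. Over the 16449 genes tested, the calls were 5031 without E18 replicate 1, 4554 without E18 replicate 3 and 5793 without E18 replicate 4. They were 8717 without P5 replicate 8, against 7135 with all samples. With E18 replicate 4 as the lone E18 sample, the median log2 fold change was -0.21 over the Rab genes and -0.0073 over all genes.

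**Figure D1:**
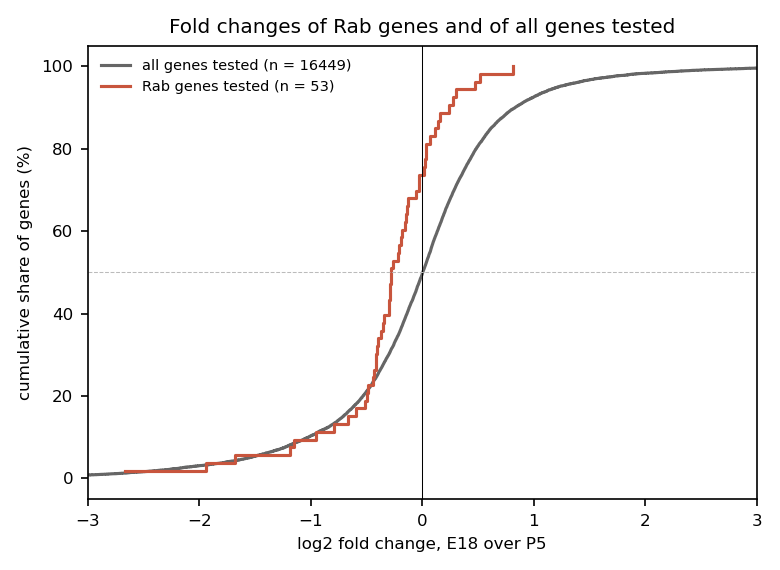
Cumulative share of genes (y axis, percent) against the log2 fold change of E18 over P5 (x axis) for the 53 Rab genes tested and for all 16449 genes tested. The Rab curve crosses 50% at -0.28, to the left of the curve of all genes at 0.0047, and it ends short of a 2-fold rise at E18.

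The summed level of the 58 genes was 5371, 5538 and 5911 CPM in the E18 samples and 7047, 6638 and 6929 CPM in the P5 samples. These sums were 0.542% to 0.575% of all assigned reads at E18 and 0.668% to 0.710% at P5. No E18 sample reached any P5 sample, and the P5 mean of 6871 ± 210 CPM was 1.23 times the E18 mean of 5607 ± 277 CPM (SD, n = 3 each). A two-sided exact permutation test gave p = 0.1, the smallest value that 3 against 3 samples allow. The summed RGC markers were also higher at P5, and their part in this difference was not tested. Among these markers Nefl had the largest difference in mean level, with 1815 CPM at E18 and 2914 CPM at P5. Of the 10 markers 3 were lower at E18, 2, Isl1 and Sncg, were higher and 5 were not called, with a median log2 fold change of -0.08.

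Levels of different Rab genes were compared per kilobase of annotated exon, because longer transcripts give more reads. A small set of genes made up most of the family. At E18, Rab2a and Rab6a, which act between endoplasmic reticulum and Golgi and within the Golgi, stood highest at 193 ± 5.9 and 187 ± 14 CPM per kb (SD, n = 3), a gap smaller than their spread. They were followed by the synaptic vesicle gene Rab3a at 128 ± 8.3 and the recycling endosome gene Rab11a at 124 ± 4.7 CPM per kb, which also lay within each other's spread. Rab6b at 106 ± 9.6 and Rab10 at 106 ± 7.5 CPM per kb came next. At P5, Rab6a at 254 ± 9.8 stood above Rab2a at 232 ± 9.2 CPM per kb, and Rab3a at 180 ± 24 and Rab6b at 160 ± 14 CPM per kb stood above Rab11a at 137 ± 13 CPM per kb. Over all samples the 7 highest genes, Rab6a, Rab2a, Rab3a, Rab6b, Rab11a, Rab10 and Rab1, held 50.3% of the summed level per kb. At the other end, Rab17, Rab19, Rab20, Rab38 and Rab44 stayed at or below 0.187 CPM in every sample, with between 0 and 21 reads, and were not tested.

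**Figure D2:**
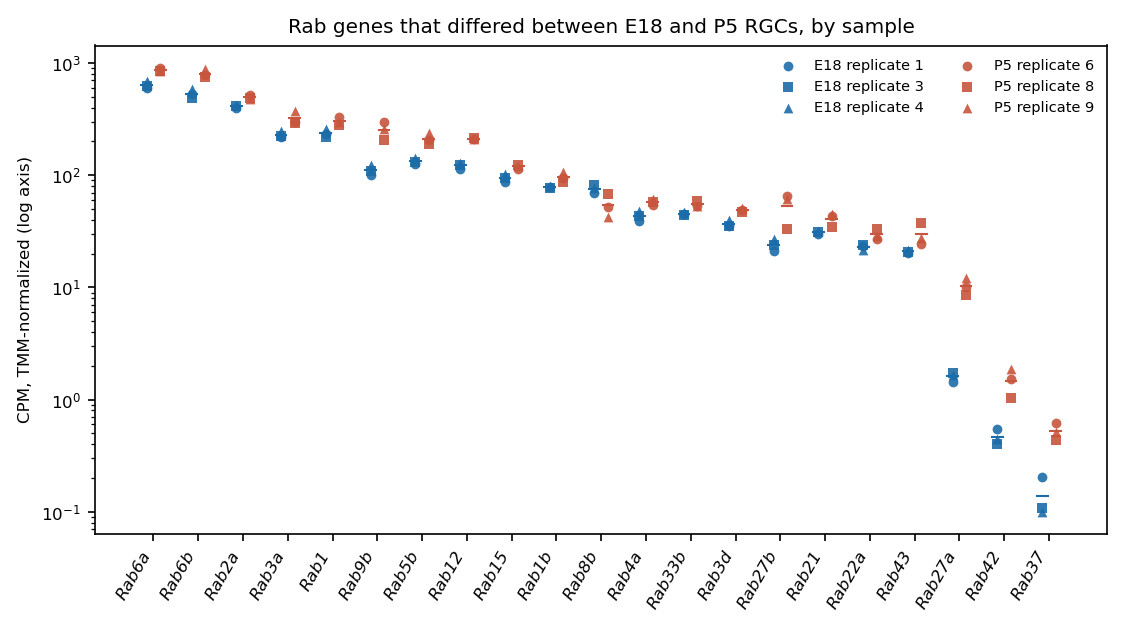
Level of each of the 21 Rab genes called different (y axis, TMM-normalized CPM on a log axis), in order of mean level, with the 3 E18 samples in blue, the 3 P5 samples in red and short lines at the group means. Rab27a at E18 lies between 1.45 and 1.73 CPM against 8.54 to 12.1 CPM at P5, and Rab8b is the gene whose E18 points lie above its P5 points.

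The Rabs of regulated exocytosis, which bring synaptic vesicles, secretory granules and lysosome-related organelles to the plasma membrane, held the widest differences. Of the 8 genes in this group, all of them tested, 5 were lower at E18 (62.5%, against 22.5% of all genes tested). Rab37, among these 5, passed the filter on low counts by its level at P5, so its place in the share is no separate support. None was higher, against 20.8% of all genes, and the median log2 fold change was -0.45. Rab27a, which tethers secretory organelles to the plasma membrane and to myosin, was at 1.45, 1.73 and 1.65 CPM at E18 and at 10.1, 8.54 and 12.1 CPM at P5. The lowest P5 sample was well above the highest E18 sample. Rab27a was thus 6.36-fold higher at P5 (log2 fold change -2.67 ± 0.189 SE, adjusted p = 9.38e-05, edgeR), the widest difference among the Rab genes tested, at a low level. Its relative Rab27b was more abundant, at 21.2, 23.8 and 26.7 CPM at E18 and at 64.7, 33.0 and 61.9 CPM at P5. Rab27b was 2.22-fold higher at P5 (log2 fold change -1.15 ± 0.233 SE, adjusted p = 0.00499, edgeR), and P5 replicate 8 lay nearer to the E18 samples than to the other P5 samples. Rab37, which takes part in granule secretion, was at 0.205, 0.107 and 0.0994 CPM at E18 and at 0.620, 0.437 and 0.510 CPM at P5. It was 3.83-fold higher at P5 (log2 fold change -1.94 ± 0.383 SE, adjusted p = 0.00460, edgeR), and its level was under 1 CPM at both ages.

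Because Rab27a and Rab8b, the latter described further on, mark the widest fall and the single rise at E18, the 250 bases upstream of their annotated starts are given here 5′ to 3′ on the gene's strand, from RefSeq on GRCm38.p6. RefSeq gives Rab27a a start near the beginning of the gene and another within an intron, and both are shown. Capitals mark the GC box searched for, GGGCGG on either strand, the core of sites bound by Sp1.
Rab27a, chr9:73044560-73044809, plus strand: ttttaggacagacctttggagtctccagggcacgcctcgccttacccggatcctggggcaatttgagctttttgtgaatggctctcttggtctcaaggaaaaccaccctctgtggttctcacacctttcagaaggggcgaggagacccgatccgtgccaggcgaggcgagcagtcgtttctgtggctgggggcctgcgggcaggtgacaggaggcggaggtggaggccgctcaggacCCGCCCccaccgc
Rab27a, intronic start, chr9:73063898-73064147, plus strand: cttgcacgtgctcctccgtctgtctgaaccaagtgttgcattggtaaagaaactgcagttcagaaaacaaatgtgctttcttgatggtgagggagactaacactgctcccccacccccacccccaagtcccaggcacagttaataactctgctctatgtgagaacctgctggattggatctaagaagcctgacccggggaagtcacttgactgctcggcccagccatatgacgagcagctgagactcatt
Rab8b, chr9:66919706-66919955, minus strand: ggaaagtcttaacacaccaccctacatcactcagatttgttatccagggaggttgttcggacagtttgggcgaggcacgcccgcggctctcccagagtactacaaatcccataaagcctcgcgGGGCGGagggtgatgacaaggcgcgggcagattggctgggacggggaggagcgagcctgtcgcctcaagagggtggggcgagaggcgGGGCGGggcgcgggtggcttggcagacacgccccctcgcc
The outer Rab27a window held 1 GC box and the inner window none, with GC contents of 62.0% and 51.6%. The Rab8b window held 2 GC boxes at a GC content of 64.4%, so the gene higher at E18 and the gene with the widest fall both held the box. RefSeq windows were at hand for 48 of the 58 Rab genes. A GC box occurred in 36 of them (75.0%), against 60.3% of 11978 tested genes and 35.4% of all 27025 genes with a window. Counted by gene, with a box in any of its windows, it was present in 15 of the 16 genes lower at E18 that had a window. Of the 28 genes not called that had a window, it was present in 19. The core bound by Elk-1 and other Ets factors, CCGGAAG on either strand, occurred in the windows of Rab8a, Rab11a and Rab24, which is 6.25% against 13.5% of tested genes and 7.83% of all genes. None of those 3 genes was called. The cAMP response element TGACGTCA occurred in the windows of Rab5a and Rab25 (4.17%, against 2.91% of tested genes and 1.77% of all genes), and the TATA box TATAAA, on either strand, in those of 4 genes (8.33%, against 8.49% and 14.3%). The median GC content of the Rab windows was 61.6%, and that of tested genes was 59.2%.

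The Rab3 genes, whose products sit on synaptic vesicles, did not move together. Rab3a, the main Rab of synaptic vesicles, was at 218, 224 and 246 CPM at E18 and at 300, 295 and 371 CPM at P5. Its ranges did not overlap, and Rab3a was 1.40-fold higher at P5 (log2 fold change -0.49 ± 0.111 SE, adjusted p = 0.00816, edgeR). Rab3d, better known from secretory granules of gland cells, was at 35.0, 35.3 and 39.8 CPM at E18 and at 48.9, 47.2 and 50.8 CPM at P5, with a log2 fold change of -0.42 and an adjusted p of 0.00850. Its call was lost without E18 replicate 3, with an adjusted p of 0.0502. Rab3b was at 48.4, 57.9 and 43.6 CPM at E18 and at 64.2, 59.0 and 59.5 CPM at P5, a log2 fold change of -0.29 that did not pass (adjusted p = 0.0774). Rab3c was at 280, 283 and 292 CPM at E18 and at 287, 266 and 289 CPM at P5. Its ages overlapped, with a log2 fold change of 0.02 ± 0.0798 SE (adjusted p = 0.824). Rab26, a synaptic vesicle Rab linked to autophagy, was at 1.08, 0.981 and 1.30 CPM at E18 and at 1.90, 1.20 and 1.40 CPM at P5, and the ages again overlapped (log2 fold change -0.42, adjusted p = 0.220).

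The Rabs of the endoplasmic reticulum and Golgi, which include the most abundant members, gave 7 of 15 genes lower at E18 and none higher. The share lower was 46.7%, against 22.5% of all genes tested, and the median log2 fold change was -0.28. Rab6a and its brain-enriched relative Rab6b both direct transport at the Golgi. Rab6a was at 601, 628 and 693 CPM at E18 and at 910, 850 and 854 CPM at P5, a 1.36-fold higher level at P5 (log2 fold change -0.44 ± 0.0863 SE, adjusted p = 0.00433, edgeR). Rab6b was at 530, 489 and 586 CPM at E18 and at 781, 752 and 884 CPM at P5, a 1.51-fold higher level at P5 (log2 fold change -0.59 ± 0.101 SE, adjusted p = 0.00246, edgeR). In both genes every P5 sample was above every E18 sample. Rab1, which carries cargo from the endoplasmic reticulum to the Golgi, was at 235, 220 and 256 CPM at E18 and at 330, 280 and 298 CPM at P5 (log2 fold change -0.35, adjusted p = 0.0195). Rab2a, which acts between the same compartments, was at 400, 412 and 426 CPM at E18 and at 516, 487 and 479 CPM at P5 (log2 fold change -0.26, adjusted p = 0.0273). The ages did not overlap in either gene, but the call of Rab1 was lost in 3 and that of Rab2a in 4 of the 6 fits that left out a sample. Rab43, Rab1b and Rab33b were also lower at E18, with log2 fold changes of -0.51, -0.30 and -0.28, and each lost its call in at least 3 of those fits. Without the filter on low counts, Rab2a and Rab33b were not called. The reads of Rab43 are uncertain, since in GENCODE 4164 of its 5386 annotated exon bases overlap Gm45140 on the same strand. The counts were made per RefSeq gene, and the part of this overlap in the call was not tested. The 8 genes that did not pass were Rab36 (-0.44), Rab34 (-0.29), Rab39b (-0.22), Rab18 (-0.05), Rab39 (0.01), Rab30 (0.04), Rab2b (0.24) and Rab33a (0.28), each with its log2 fold change.

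Among the early endosome Rabs, which receive cargo after endocytosis, 3 of the 7 tested genes were lower at E18 and none was higher. The share lower was 42.9%, against 22.5% of all genes tested, and the median log2 fold change was -0.18. Rab5b, a member of the Rab5 group that drives fusion of early endosomes, was at 126, 131 and 142 CPM at E18 and at 205, 190 and 238 CPM at P5. It was 1.59-fold higher at P5 with no overlap (log2 fold change -0.67 ± 0.106 SE, adjusted p = 0.00178, edgeR). Its relatives Rab5a and Rab5c were not called, at -0.18 and -0.15 on the log2 scale. Rab21 and Rab22a, which act on early endosomes and integrin or recycling traffic, were lower at E18 by log2 fold changes of -0.39 and -0.37, calls lost in 5 and 3 of the 6 fits that left out a sample. Rab31 (0.14) and Rab24 (0.30) were not called.

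In the recycling endosome group, 2 of 8 genes were lower at E18 and the median log2 fold change was -0.08. The share lower, 25%, was near the 22.5% of all genes tested. Rab4a, of the fast recycling route, had a log2 fold change of -0.41, with 39.1 to 48.1 CPM at E18 and 54.4 to 61.4 CPM at P5 (adjusted p = 0.0146, edgeR). Rab15, a neuronally enriched regulator of the same route, was at 87.5, 94.4 and 102 CPM at E18 and at 114, 125 and 120 CPM at P5 (log2 fold change -0.34, adjusted p = 0.0167). Both calls were lost without E18 replicate 1 and without E18 replicate 3. The Rab11 group, which serves slow recycling and carries receptors and integrins into axons, was not called. Rab11a was at 278, 299 and 295 CPM at E18 and at 353, 296 and 309 CPM at P5, and Rab11b was between 148 and 164 CPM at E18 and between 144 and 164 CPM at P5. Their log2 fold changes were -0.14 and 0.04. Rab4b (-0.13), Rab14 (-0.03), Rab35 (0.12) and Rab25 (0.81), the last under 0.5 CPM in every sample, were not called either.

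Of the 4 tested genes of late endosomes and lysosomes, Rab9b was lower at E18 (25%, against 22.5% of all genes tested). Rab9b, an X-linked relative of the Rab9 protein that returns receptors from late endosomes to the trans-Golgi, was at 101, 109 and 124 CPM at E18 and at 298, 206 and 256 CPM at P5. The highest E18 sample was far below the lowest P5 sample, and Rab9b was 2.28-fold higher at P5 (log2 fold change -1.19 ± 0.143 SE, adjusted p = 0.000596, edgeR). Among Rab genes above 100 CPM on average it had the widest difference. Rab9 (-0.28) and Rab32 (-0.30) were not called, nor was Rab7, the main Rab of late endosomes, at 192, 178 and 192 CPM at E18 and 223, 213 and 214 CPM at P5 (log2 fold change -0.21, adjusted p = 0.0614).

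The group that carries cargo from the trans-Golgi to the plasma membrane and cilium was the only one with calls in both directions. It had 1 gene lower, 1 higher and 5 not called of 7. The shares lower and higher were 14.3% each, against 22.5% and 20.8% of all genes tested. Rab12, a regulator of receptor degradation and autophagy, was at 114, 124 and 129 CPM at E18 and at 210, 217 and 210 CPM at P5. It was 1.73-fold higher at P5 (log2 fold change -0.79 ± 0.0850 SE, adjusted p = 0.000371, edgeR), and neither age varied by more than a small part of that gap. Rab8b, which serves polarized delivery to the membrane and cilium, was at 69.0, 81.4 and 76.7 CPM at E18 and at 52.6, 68.0 and 42.8 CPM at P5. It was 1.39-fold higher at E18 (log2 fold change 0.48 ± 0.160 SE, adjusted p = 0.0402, edgeR), although P5 replicate 8 lay just below its lowest E18 sample. The call of Rab8b was lost in 5 of the 6 fits that left out a sample. Rab13 (0.52), Rab8a (0.16), Rab10 (-0.03), Rab28 (-0.15) and Rab23 (-0.19) were not called. Rab10, which delivers membrane to the axon plasma membrane, was nevertheless abundant, at 343, 377 and 395 CPM at E18 and 411, 355 and 372 CPM at P5.

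Of the remaining genes, with no settled place in these groups, Rab42 was at 0.542, 0.401 and 0.442 CPM at E18 and at 1.52, 1.03 and 1.88 CPM at P5, 3.20-fold higher at P5 (log2 fold change -1.68 ± 0.302 SE, adjusted p = 0.00305, edgeR). Rab29 (-0.95), Rab40b (-0.50) and Rab40c (0.07) were not called. Across the groups, 10 of the 21 called genes kept their call under every other scaling, tool, filter and left-out sample in which they were tested, which were Rab27a, Rab27b, Rab37, Rab42, Rab9b, Rab12, Rab5b, Rab6a, Rab6b and Rab3a. The same count was not made over all 7135 called genes, so whether the Rab genes differ from them in this was not tested. Rab42 passed the filter of 1 CPM in 3 samples through its P5 samples alone, so keeping its call there is no separate support. Rab37, with 17, 12 and 9 reads at E18, likewise passed the main filter by its level at P5.

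**Figure D3:**
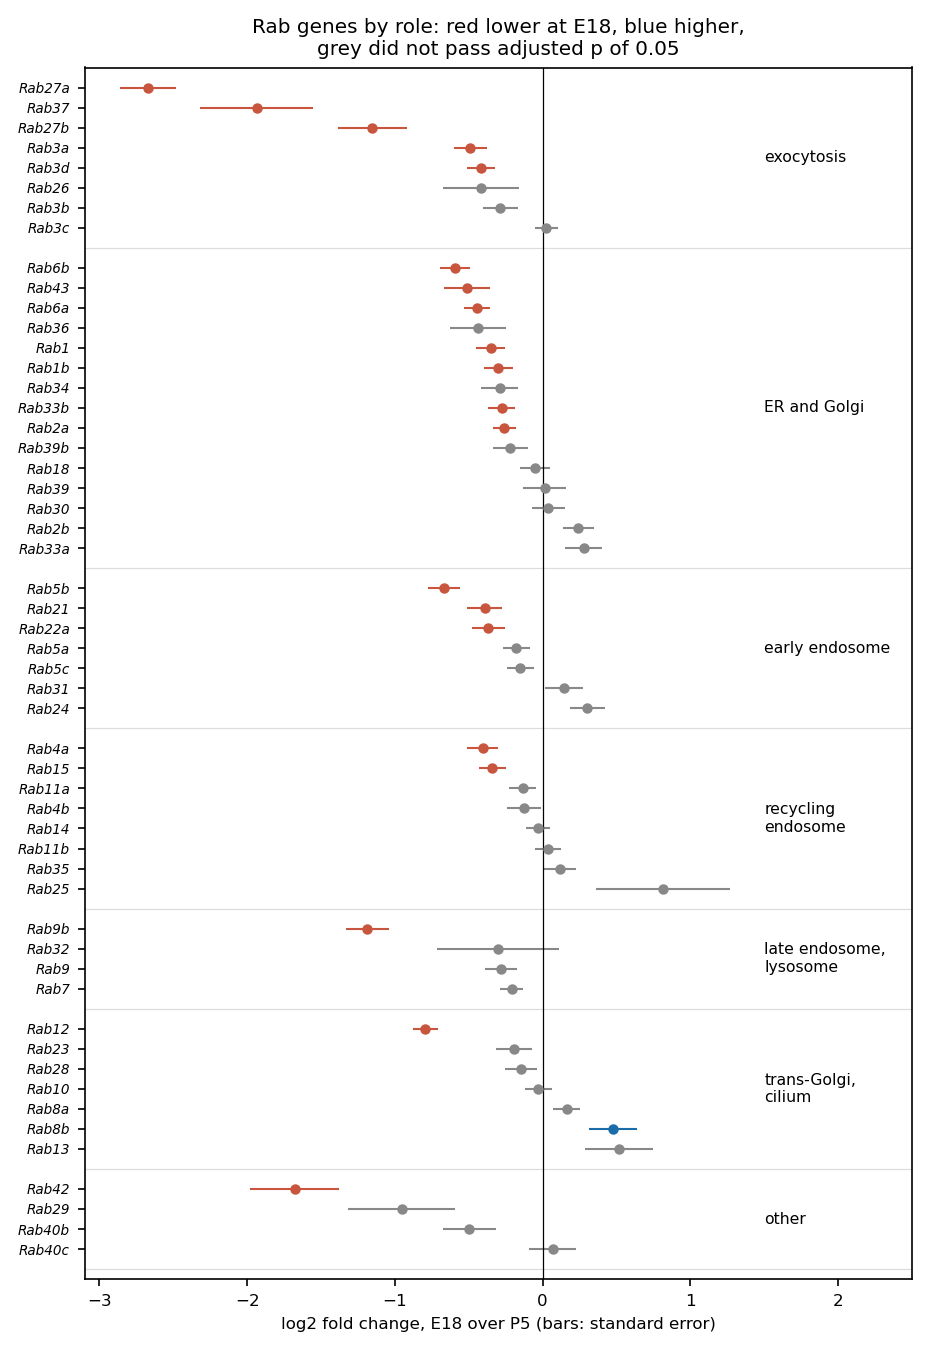
Log2 fold change of E18 over P5 (x axis) with its standard error for each of the 53 Rab genes tested, grouped by role. Red points were lower at E18, the single blue point, Rab8b, was higher, and grey points did not pass an adjusted p of 0.05. Rab27a lies farthest left at -2.67.

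The called genes also showed how single samples lay within their age. P5 replicate 8 was the P5 sample nearest to the E18 mean in 14 of the 21 called Rab genes (66.7%), against 64.2% of all 7135 called genes. E18 replicate 4 was the E18 sample nearest to the P5 mean in 16 of the 21 (76.2%), against 50.6% of all called genes. Both samples lay toward the other age in most of the called genes, Rab or not, and whether the Rab share differs was not tested.

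Some relatives within a subfamily had proportions to each other that did not overlap between the ages, although no pair passed its test. The log2 ratio of CPM was tested for 17 pairs by a two-sided exact permutation test, and 9 pairs had ratios that did not overlap between ages. Ranges of single genes did not overlap for 56.1% of all genes tested, and no such share was taken for other pairs of genes. Each of these 9 gave an exact permutation p of 0.1, the smallest that 3 against 3 samples allow (0.189 adjusted over the 17 pairs), so none could pass the threshold. The widest shift was that of Rab27a over Rab27b, with log2 ratios of -3.87, -3.78 and -4.02 at E18 and of -2.67, -1.95 and -2.36 at P5. Per kilobase, Rab27a thereby held 13.8% ± 0.99 of the Rab27 pair at E18 and 32.3% ± 5.5 at P5 (SD, n = 3). Rab9b held 46.4% ± 1.4 of the Rab9 pair at E18 and 61.7% ± 1.7 at P5, so Rab9 had the larger share in each E18 sample and Rab9b in each P5 sample. Within the Rab3 group, Rab3a held 69.5% ± 1.4 at E18 and 74.3% ± 2.2 at P5, while Rab3c held 17.4% ± 0.43 and 13.1% ± 0.98. The share of Rab5b in the Rab5 group was 24.1% ± 0.36 at E18 and 31.1% ± 3.3 at P5. Rab2b, which shares 2254 of its 2906 exon bases with genes on the opposite strand, held 17.2% ± 0.76 of the Rab2 pair at E18 and 12.8% ± 0.74 at P5, and Rab33b held 24.7% ± 2.0 and 32.5% ± 3.3 of the Rab33 pair. The ratios of Rab4a to Rab4b, Rab22a to Rab31 and Rab40b to Rab40c also did not overlap, with differences of -0.29, -0.52 and -0.57 on the log2 scale, E18 minus P5. Rab4b shares 1016 of its 1192 exon bases with Gm21983 on the same strand, so its reads are uncertain. By contrast the ratio of Rab6a to Rab6b differed by 0.15 and that of Rab11a to Rab11b by -0.17, with overlapping samples. Rab8b held 56.1% ± 0.69 of the Rab8 pair at E18 and 50.3% ± 7.0 at P5, where P5 replicate 8, at 57.8%, was above every E18 sample.

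**Figure D4:**
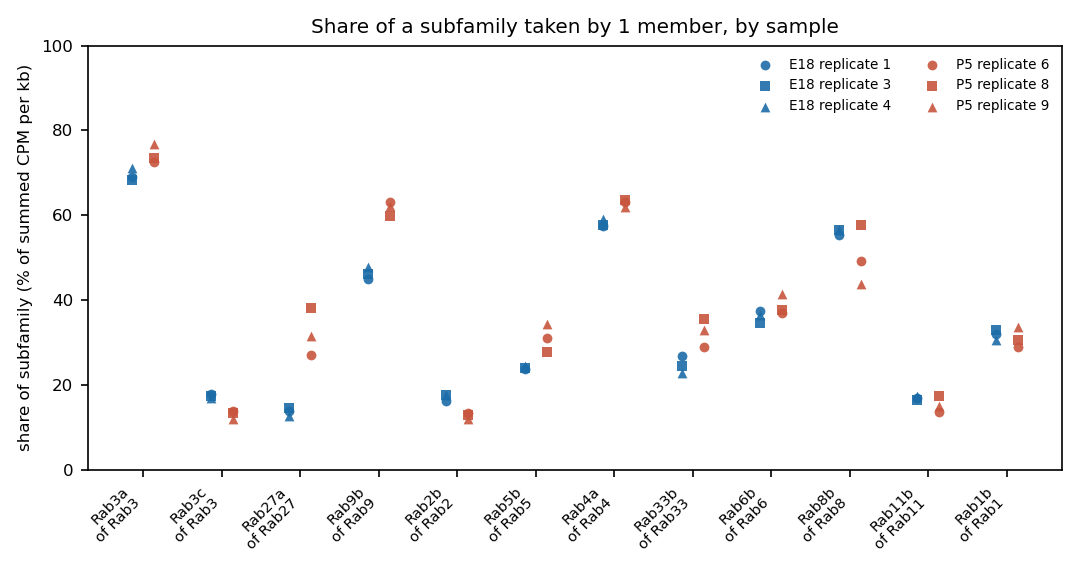
Share of a Rab subfamily taken by 1 of its members (y axis, percent of the summed CPM per kb) in each of the 3 E18 samples (blue) and 3 P5 samples (red). Rab27a averages 13.8% at E18 and 32.3% at P5, and Rab9b 46.4% and 61.7%, whereas the Rab1b and Rab11b points of the ages overlap.

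Proteins that act on Rabs were examined from lists of known partners. The membrane cycle depends on GDP dissociation inhibitors, which extract Rabs from membranes, and on escort and transferase proteins, which attach the lipid anchor. Gdi2 was at 400, 440 and 417 CPM at E18 and at 444, 404 and 452 CPM at P5. The ages overlapped, and it was not called (log2 fold change -0.05, adjusted p = 0.681, edgeR). The transferase genes Rabggta (0.05) and Rabggtb (0.18) and the escort gene Chml (0.01) were not called either. The escort gene Chm (-0.33) and the prenylated Rab acceptor genes Rabac1 (-0.45) and Praf2 (-0.34) were lower at E18, with adjusted p of 0.0319, 0.0237 and 0.0465 (edgeR). Each of these 3 calls was lost in at least 3 of the fits that left out a sample, and that of Praf2 under upper-quartile scaling as well.

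Of 41 exchange factors, all tested, 10 were higher (24.4%, against 20.8% of all genes) and 2 lower at E18 (4.88%, against 22.5%), with a median log2 fold change of 0.08. The share higher at E18 was thus near that of all genes and the share lower was below it, and a difference from the Rab genes was not tested. Rab3il1, an exchange factor for Rab8 that also binds Rab3, was at 9.76, 10.3 and 10.5 CPM at E18 and at 5.09, 4.47 and 5.73 CPM at P5 (log2 fold change 1.00, adjusted p = 0.00131, edgeR). Hps1, part of the exchange factor for Rab32 and Rab38, had a log2 fold change of 0.81, and Dennd2a, which acts on Rab9, of 0.74. The call of Dennd2a was lost in 4 of the fits that left out a sample. The 2 genes lower at E18 were Trappc10 (-0.54), a subunit of a Golgi tethering and exchange complex, and Rabif (-0.45), which binds nucleotide-free Rabs.

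Of 37 GAPs, all tested, 4 were higher (10.8%, against 20.8% of all genes) and 7 lower at E18 (18.9%, against 22.5%). Their median log2 fold change was -0.12. Tbc1d1, a GAP of insulin-regulated transport, was at 36.7, 35.5 and 35.9 CPM at E18 and at 63.3, 80.2 and 84.4 CPM at P5, 2.11-fold higher at P5 (log2 fold change -1.08 ± 0.119 SE, adjusted p = 0.000425, edgeR). Rabgap1l (-0.65) and Tbc1d12 (-0.64) were lower at E18, and Tbc1d14 (0.69), Tbc1d16 (0.43) and Tbc1d22a (0.40) were higher. Tbc1d14 lost its call without P5 replicate 6, Tbc1d16 in 5 of the 6 fits that left out a sample and Tbc1d22a without E18 replicate 3 or E18 replicate 4. The catalytic and regulatory subunits of the Rab3 GAP, picked out after their values had been seen, were both lower at E18, with log2 fold changes of -0.56 for Rab3gap1 and -0.36 for Rab3gap2. The call of Rab3gap2 was lost without E18 replicate 1 or E18 replicate 3.

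Among 40 effectors, 39 of them tested, 8 were higher (20.5%, against 20.8% of all genes) and 9 lower at E18 (23.1%, against 22.5%). Both shares were near those of all genes, and the median log2 fold change was -0.03. Of the synaptotagmin-like effectors of Rab27, Sytl2 and Sytl5 were lower and Sytl3 was higher at E18. Sytl2, which links Rab27 on vesicles to the plasma membrane, was at 11.9, 11.3 and 11.3 CPM at E18 and at 57.3, 52.0 and 69.2 CPM at P5, 5.18-fold higher at P5 (log2 fold change -2.37 ± 0.127 SE, adjusted p = 3.31e-05, edgeR). Sytl3, of the same family, was at 18.9, 19.996 and 19.9 CPM at E18 and at 7.72, 6.46 and 5.79 CPM at P5, 2.95-fold higher at E18 (log2 fold change 1.56 ± 0.137 SE, adjusted p = 0.000199, edgeR). Sytl5, below the 5 CPM set for named partners and named after its values were seen, had the widest difference among the effectors, at 0.518, 0.464 and 0.442 CPM at E18 and at 4.90, 2.78 and 6.21 CPM at P5 (log2 fold change -3.28, adjusted p = 0.00028, edgeR). The ages did not overlap in any of these 3 genes, and Sytl1 (0.30) and Sytl4 (0.70), both under 1 CPM, were not called. Myo5b, a myosin motor bound by Rab11 and Rab8, was at 33.2, 28.7 and 24.7 CPM at E18 and at 104, 89.5 and 132 CPM at P5, 3.75-fold higher at P5 (log2 fold change -1.91 ± 0.164 SE, adjusted p = 0.000178, edgeR). Exoc6, which encodes an exocyst subunit that binds Rab11 and Rab8, had a log2 fold change of -0.72 at a mean of 53.7 CPM. Its relative Exoc6b, named after its values were seen, went the other way at a mean of 124 CPM. It was higher at E18 without overlap (log2 fold change 0.27, adjusted p = 0.0281, edgeR). Mical1 (0.92), an actin-oxidizing enzyme that binds several Rabs, and Plekhm1 (0.81), a Rab7 effector at lysosomes, were higher at E18. Of the Rab3 effectors, also picked out after their values had been seen, Rph3a was higher at E18 (log2 fold change 0.49, adjusted p = 0.00347, edgeR), while Rims1 (-0.01) and Rims2 (-0.10) were not called.

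**Figure D5:**
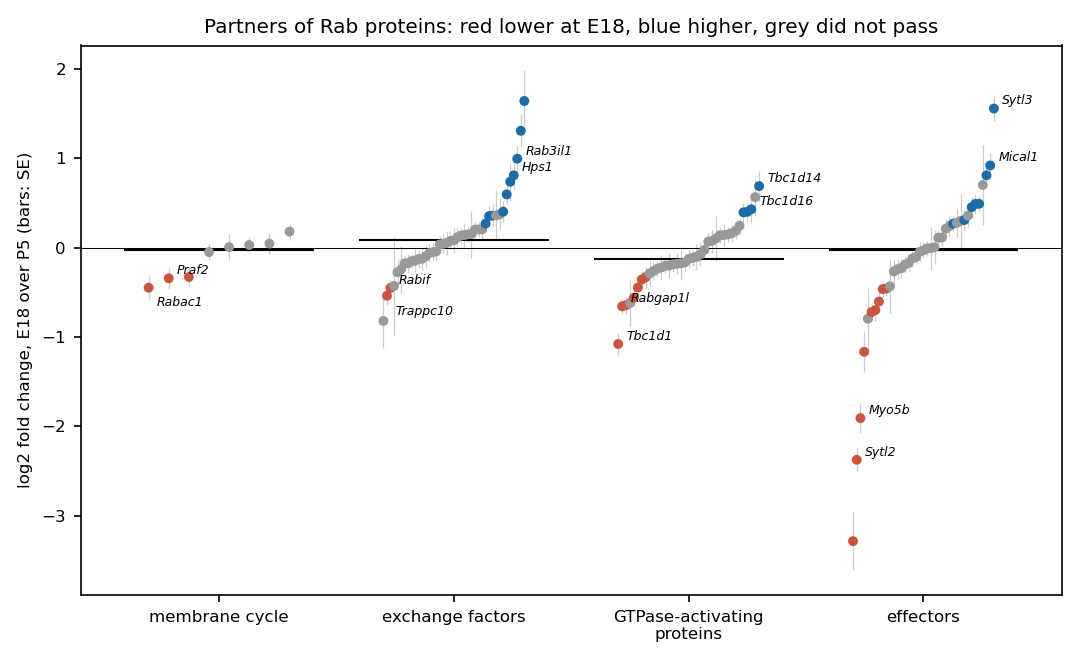
Log2 fold change of E18 over P5 (y axis) with its standard error for partners of Rab proteins in 4 classes, with a black line at each class median. Red points were lower at E18, blue points higher, and grey points did not pass. Among the effectors, the lowest point, unlabelled, is Sytl5 at -3.28, followed by Sytl2 at -2.37, and Sytl3 at 1.56 is the highest, while the exchange factors hold 10 blue and 2 red points.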

How the data were processed

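Per the labels and the study's methods, libraries were made with a TruSeq kit and RiboZero Gold (the labels also name polyA RNA), read as paired 100-base reads, handled with CASAVA 1.8.2, aligned with STAR to mm10 and counted per RefSeq gene with HT-seq. Strand and multimapping settings are not given in the sources used here. The authors deposited raw counts, which were used, and beside them normalized signal, log2 fold changes, p-values and scores of their own comparison, which were not used. A column headed with the numbers 1, 2 and 5 was taken as E18 replicate 1. Every other count column carries a single replicate number, and the labels do not say whether E18 replicate 1 was pooled.

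Counts were fitted with edgeR 4.0.16 in R 4.3.3 (TMM, filterByExpr, quasi-likelihood test, Benjamini-Hochberg over 16449 genes, threshold 0.05), E18 against P5, 3 samples each, and tested on simulated data first. Alternatives were upper-quartile and RLE scaling, DESeq2 1.42.0, edgeR's exact test, other filters and leaving out each sample. All 58 Rab genes matched GENCODE vM21 on GRCm38, whose basic exon unions gave lengths. Of these, 20 share exon bases with another gene, from small overlaps, as in Rab27a (149 bases, Gm27186), to most of the exon bases, as in Rab4b (1016 of 1192), Rab2b (2254 of 2906), Rab43 (4164 of 5386) and Rab24 (775 of 1168), whose reads are uncertain. The members and lists were chosen with earlier results of these data known. Rab3 and Rab27 genes, and called Rab genes with at least a 1.5-fold difference or a mean of 100 CPM, were named with each sample's value, and other Rab genes with their fold change. Of each partner list, up to 3 called genes a direction with a mean of at least 5 CPM were named, and the membrane cycle list, of which 1 gene is not reported here. Paralog ratios were taken without a pseudocount, and with 0.5 CPM added as an alternative. Replicates of a group differed by more than sampling noise.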

Additional observations from a re-analysis of the deposited data

How the results depend on the processing

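No paired analysis was possible because the groups share no replicate numbers. Other scalings, filters and tools called 20 to 24 Rab genes. Leaving out 1 sample at a time gave 11 to 28 Rab genes, 11 to 25 of them lower and 0 to 3 higher at E18, 7 to 17 exchange factors, 6 to 16 GAPs, 0 to 3 membrane cycle genes and 14 to 20 effectors, while the calls among all genes ranged from 4554 to 8717. With E18 replicate 4 as the lone E18 sample, a setting chosen after seeing the data that assumes this sample varies like the P5 samples, 3 Rab genes were called, 3 lower and 0 higher, with 4 exchange factors, 1 GAP, 0 membrane cycle genes and 5 effectors, of 1581 genes in all. Fewer samples entered these fits, and the cause of each lost call was not tested.

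Rab genes with fold changes near 0 crossed it when a sample was left out. The log2 fold change of Rab10 ranged from -0.094 to 0.025, of Rab3c from -0.033 to 0.046, of Rab11b from -0.0053 to 0.077, of Rab18 from -0.15 to 0.014, of Rab40c from -0.055 to 0.25, of Rab30 from -0.038 to 0.10 and of Rab39 from -0.13 to 0.13. With the lone E18 sample Rab10 was at 0.058 and Rab18 at 0.021. The difference in the log2 ratio of Rab1 to Rab1b ranged from -0.14 to 0.017, of Rab3a to Rab3d from -0.11 to 0.014 and of Rab5a to Rab5c from -0.084 to 0.054. The cause was not tested. The family total stayed lower at E18 under each setting tried, with an E18 minus P5 difference of -1417 to -1146 CPM when a sample was left out, where the smallest p the test allows is 0.2. Genes under 1 CPM, such as Rab37, rest on few reads, and Rab37 was not tested under the stricter filter.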

Other observations

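Genes named after Rab that fall outside the family definition were also read from the same fit. The Rab-like GTPase genes Rabl6 and Rabl3 were higher at E18, the direction opposite to most called Rab genes. Rabl6 was at 78.9, 85.0 and 79.9 CPM at E18 and at 59.3, 66.5 and 59.6 CPM at P5 (log2 fold change 0.40, adjusted p = 0.00816, edgeR). Rabl3 was at 15.9, 14.3 and 17.6 CPM at E18 and at 12.8, 10.2 and 12.0 CPM at P5 (log2 fold change 0.45, adjusted p = 0.0274, edgeR). In both genes the ages did not overlap. Rabl2, which acts at the cilium, was not called (log2 fold change 0.14, adjusted p = 0.361).

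The antisense transcripts Rab10os (0.03) and Rab26os (0.20) were not called, each given with its log2 fold change. Rab26os stood at 2.63 to 4.08 CPM and Rab26 itself at 0.981 to 1.90 CPM, values not scaled for transcript length. Rab11fip4os1 and Rab11fip4os2, antisense to the gene of a Rab11 effector, had log2 fold changes of 1.30 and 1.41 (adjusted p = 0.0120 and 0.0422, edgeR), at or below 1.18 CPM in every sample. Strand use in the counting is not given in the sources used here, so reads of an antisense transcript and of its partner may not be told apart.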
